A study of Mus musculus with 13 samples.

Results

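The genes described here encode accessory and variant subunits of the BAF chromatin remodelling complexes. They were chosen by symbol, from a list of 10 names, and each of the 10 had 1 row among the 25965 genes of the expression table. The measurement was RNA-seq of female mouse embryonic stem cells (mESCs), an F1 line with an FVB/NJ mother and a CAST/EiJ father, grown in 2i medium and then weaned into DME HiHi medium to differentiate. Day0 was 1 library of undifferentiated cells. Nons, cells with a nonsilencing control hairpin, Smarcc1.6 and Smarcc1.7, cells with 1 of 2 hairpins against Smarcc1, had 4 libraries each, 1 on each of days 4, 5, 6 and 7. All 3 groups shared the FVB/CAST F1 background, viral transduction on day 2 of differentiation and puromycin selection on day 3. With 1 library per group and day, the days served as the replicates. Separate cultures or separate derivations of the line were not given for the days, so the p-values measure the spread between these 12 libraries.

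BAF complexes use ATP to move or evict nucleosomes, and Smarcc1 is a scaffold subunit around which they assemble. The complexes come in several forms that share a core and differ in accessory subunits. Canonical BAF (cBAF) carries Arid1a or Arid1b and Dpf2, PBAF carries Arid2, Pbrm1, Brd7 and Phf10, and non-canonical BAF (ncBAF) carries Brd9. Ss18 sits in cBAF and ncBAF, and Bcl7 family proteins are found in all of the forms. In embryonic stem cells the complex built on Smarcc1 helps maintain pluripotency, and the subunit composition shifts as cells differentiate.

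The guide strands are shown because they define the perturbation and because a short match to a member's transcript can be looked for. They are bases 60 to 81 of the 97-base hairpin oligonucleotides of the study, written 5′ to 3′ with guide bases 2 to 8, the seed, in capitals.
Smarcc1.6 guide: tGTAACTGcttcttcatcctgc
Smarcc1.7 guide: tTGCTCATcttcttccttctga
Each guide was complementary over all 22 bases to the coding sequence of Smarcc1. The Smarcc1.6 site lay in exon 13 (chr9:110177472-110177493, plus strand, mm10) and the Smarcc1.7 site in exon 11 (chr9:110173911-110173932), and each site was in 4 of the 6 coding transcripts of the gene in GENCODE M21. The reverse complement of the Smarcc1.6 seed, CAGTTAC, occurred on the sense strand of transcripts of 3 of the 10 members, Dpf2, Brd7 and Phf10, against 16.7% of 21877 coding genes. That of Smarcc1.7, ATGAGCA, occurred in 4 of 10, Arid1a, Arid1b, Brd7 and Brd9, against 25.9%. Transcripts differ in length, so these shares describe whole transcripts and not windows of 1 size. Bcl7c held neither match, and its longest stretches complementary to the guides were 6 and 7 bases.

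Smarcc1 itself was lower than same-day Nons in 8 of 8 differences. Levels are given throughout as log2 CPM, reads scaled to the same total of mapped reads in each library. The Smarcc1 level was 8.01 in the Day0 library and, on days 4, 5, 6 and 7, 9.10, 8.87, 8.28 and 7.89 in Nons, and it ranged from 7.28 to 7.42 in Smarcc1.6 and from 7.17 to 7.96 in Smarcc1.7. The gap narrowed from 31.2% and 45.4% of the Nons level on day 4 to 65.5% and 76.8% on day 7. Differences on day 7 were thus measured under the smallest reduction of the target.

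The shallowest library, Smarcc1.7 of day 5, had 13993440 mapped reads and the deepest, Smarcc1.6 of day 4, had 63548092. The members had between 305 reads (Brd9, Smarcc1.7, day 5) and 23341 reads (Arid1a, Smarcc1.6, day 4), so all 10 lay far above the level of 3 reads, and counting error alone had an SD of at most 0.083 log2 units. The share of reads that fell in genes was 85.3% to 86.5% for Day0 and the 3 day 6 libraries, and 91.6% to 92.6% for the remaining 9. Same-day differences fall within these sets, as do changes among days 4, 5 and 7, whereas steps into or out of day 6 cross them, and so do Day0 comparisons with days 4, 5 and 7. The sum of 8 pluripotency markers (Pou5f1, Sox2, Nanog, Zfp42, Esrrb, Klf4, Tfcp2l1 and Dppa3) was a log2 CPM of 12.4 at Day0 and 10.1 to 11.4 later. This sum was higher than same-day Nons in 7 of 8 hairpin libraries (mean difference 0.29, from -0.0015 to 0.79). The study itself reports that pluripotency and early differentiation genes did not change consistently with the knockdown. Its comparison of expression profiles found no delay of differentiation. A sum of CPM follows its most abundant genes. In bulk RNA, a change in how many cells express a gene and a change in RNA per cell cannot be told apart.

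Among the cBAF genes, Arid1a and Dpf2 fell over days 4 to 7 and Arid1b rose, in a fit that took the 12 libraries as separate. Libraries of 1 day deviated together, so the changes per day of these and the other members rest on 4 days. Their p-values are too small. Arid1a, the DNA-binding subunit most often associated with cBAF in embryonic stem cells, stood at 7.67 in the Day0 library. Its values were 8.55, 8.45, 8.32 and 7.63 in Nons, 8.52, 8.39, 8.57 and 7.74 in Smarcc1.6, and 8.39, 8.43, 8.27 and 7.71 in Smarcc1.7 on days 4, 5, 6 and 7. The 3 groups overlapped, and most of the fall came between days 6 and 7, by 0.69, 0.83 and 0.56 log2 units in Nons, Smarcc1.6 and Smarcc1.7. The change per day was -0.24 ± 0.057 (SE) log2 units (limma, adjusted p = 0.0036).

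Arid1b, the paralogue that takes the place of Arid1a in other cBAF complexes, went the opposite way. Its level was 5.56 in the Day0 library, then 4.40, 5.16, 5.70 and 5.47 in Nons on days 4 to 7. In Smarcc1.6 the values were 4.30, 4.29, 5.55 and 5.31, and in Smarcc1.7 they were 4.30, 4.63, 5.36 and 5.51. All 3 groups started day 4 within 0.11 log2 units of each other and below Day0. Most of the later increase came between days 4 and 5 in Nons and between days 5 and 6 in the hairpin libraries. Nons gained 0.76 in the first of these steps and 0.53 in the second, Smarcc1.6 changed by -0.013 and then gained 1.27, and Smarcc1.7 gained 0.33 and then 0.73. Over days the change was 0.41 ± 0.072 (SE) log2 units per day (limma, adjusted p = 0.000587).

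Dpf2, a double PHD finger protein that binds modified histone tails, varied least with the hairpins among the cBAF genes. Dpf2 levels were 6.36 at Day0, 6.79, 6.38, 6.16 and 6.29 in Nons, 6.68, 6.51, 6.19 and 6.24 in Smarcc1.6, and 6.67, 6.30, 6.12 and 6.34 in Smarcc1.7. Hairpin and Nons libraries of the same day differed by at most 0.13 log2 units. The fall over days was -0.15 ± 0.041 (SE) log2 units per day (limma, adjusted p = 0.00875).

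**Figure D1:**
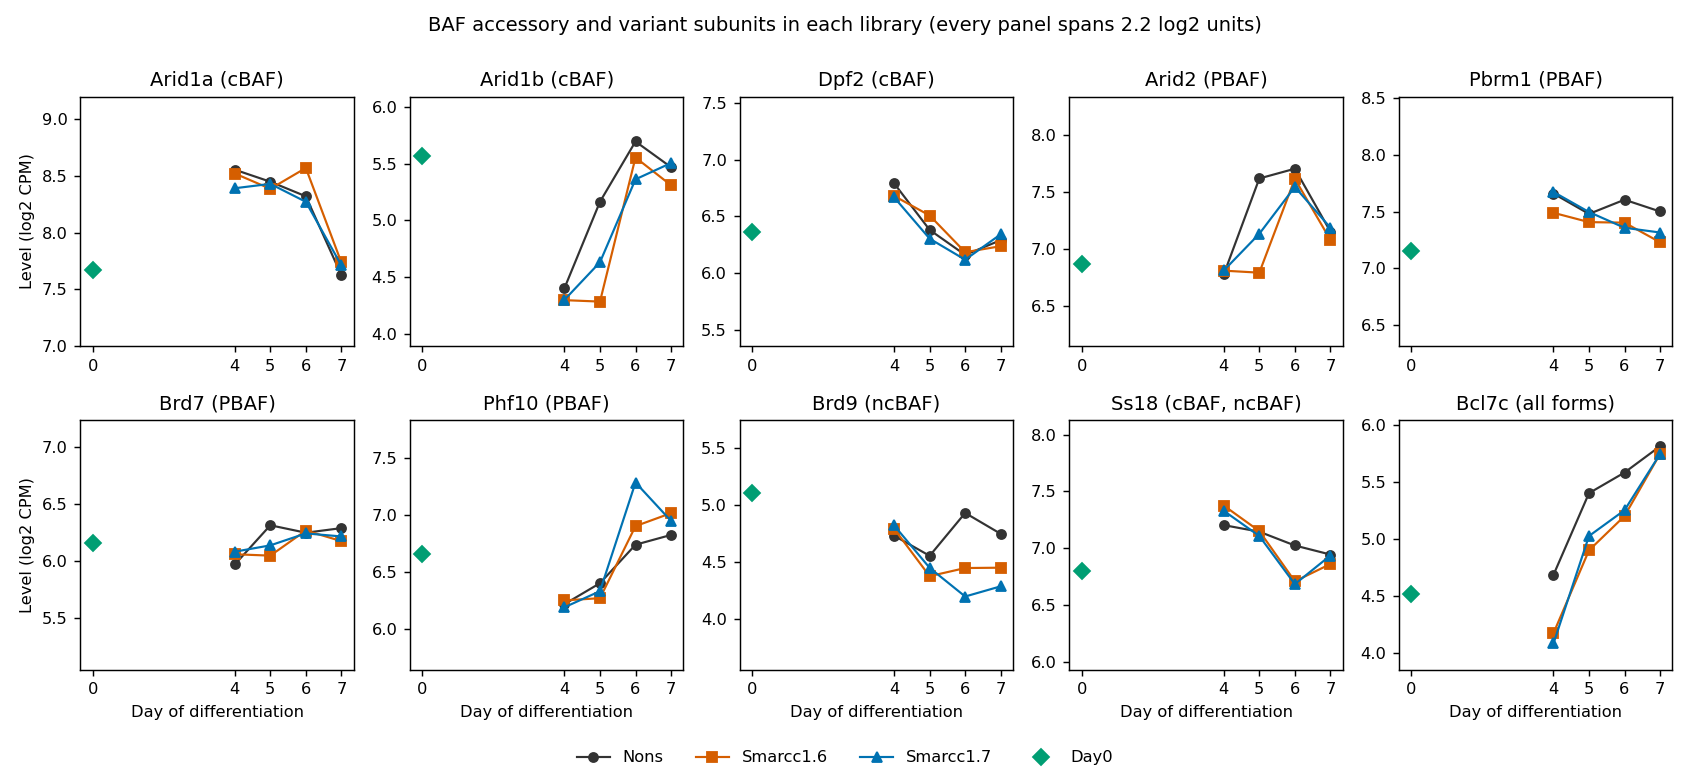
Level of each subunit gene (y axis, log2 CPM) against day of differentiation (x axis) in the single Day0 library (green diamond) and in Nons, Smarcc1.6 and Smarcc1.7 (lines, 1 library per point). Arid1b and Arid2 stand apart from Nons on day 5, Brd9 on days 6 and 7, and Bcl7c on days 4 to 6, where both hairpin lines lie below the control.

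The PBAF genes moved in different directions. Arid2, the ARID subunit that defines PBAF, stood at 6.87 in the Day0 library. On days 4 to 7 the Nons values were 6.78, 7.62, 7.71 and 7.15, those of Smarcc1.6 were 6.81, 6.79, 7.62 and 7.08, and those of Smarcc1.7 were 6.81, 7.13, 7.55 and 7.19. On days 4, 6 and 7 each hairpin library lay within 0.16 log2 units of Nons, whereas on day 5 Smarcc1.6 was at 56.3% and Smarcc1.7 at 71.4% of the Nons level. As for Arid1b, the step from day 4 to day 5 was large in Nons (0.84) and smaller in Smarcc1.6 (-0.018) and Smarcc1.7 (0.32). The change per day of Arid2 was 0.15 ± 0.081 (SE) log2 units and did not pass the test (limma, adjusted p = 0.139). The level was highest on day 6 in all 3 groups, and without day 7 the change was 0.41 per day (limma, adjusted p = 0.00286). Of the 16 fits with a day or library left out, this was the 1 that passed. Without day 4 the change was -0.021 per day.

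Pbrm1, which carries the bromodomain array of PBAF, was at 7.15 in the Day0 library, at 7.66, 7.48, 7.60 and 7.50 in Nons, at 7.49, 7.41, 7.40 and 7.23 in Smarcc1.6, and at 7.67, 7.50, 7.36 and 7.32 in Smarcc1.7. On days 6 and 7 all 4 hairpin libraries lay below Nons, by 0.19 to 0.27 log2 units. Pbrm1 fell slightly over days, by 0.078 log2 units per day (SE 0.027, limma, adjusted p = 0.0281), and this call held in 8 of the 16 fits with a day or library left out (adjusted p of 0.0224 to 0.332). Pbrm1 overlaps 2010107H07Rik and Gm5459 on the opposite strand. Gm5459 shared no exon bases with it and stayed at or below a log2 CPM of -0.54, and 2010107H07Rik, whose exons were not matched to the annotation, lay between 2.28 and 3.68.

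Brd7, a bromodomain subunit of PBAF, moved within a narrow band, from 5.97 (Nons, day 4) to 6.31 (Nons, day 5) over days 4 to 7, with 6.16 at Day0. Phf10, the PHD finger subunit of PBAF, was at 6.65 at Day0. Later values were 6.22, 6.40, 6.74 and 6.83 in Nons, 6.25, 6.27, 6.90 and 7.02 in Smarcc1.6, and 6.19, 6.33, 7.29 and 6.95 in Smarcc1.7. Phf10 rose in all 3 groups, by 0.28 ± 0.054 (SE) log2 units per day (limma, adjusted p = 0.00112, 12 libraries taken as separate). On days 6 and 7 Phf10 was higher than Nons in 4 of 4 hairpin libraries, by 0.12 to 0.55 log2 units. The antisense gene 1600012H06Rik shares 470 exon bases with Phf10 and had a log2 CPM of 4.85 to 5.61, with a mean difference from same-day Nons of 0.046. The strand setting of the counting was not given in the sources used here, so reads of this pair cannot be told apart, and the Phf10 values are uncertain to that extent.

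Brd9, the bromodomain protein that marks ncBAF, had the fewest reads of any member in a single library. Brd9 was at 5.10 in the Day0 library and at 4.73, 4.55, 4.93 and 4.75 in Nons. With Smarcc1.6 the values were 4.79, 4.37, 4.44 and 4.45, and with Smarcc1.7 they were 4.82, 4.45, 4.19 and 4.28. On day 4 both hairpin libraries were slightly above Nons, and on days 6 and 7 all 4 were below it, at 71.4% and 60.0% of Nons on day 6 and 81.3% and 72.6% on day 7. The change per day over the 3 groups was -0.080 ± 0.051 (SE) log2 units and did not pass the test (limma, adjusted p = 0.204).

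Of the subunits shared between forms, Ss18 fell and Bcl7c rose with days. Ss18, a subunit of cBAF and ncBAF, was at 6.80 in the Day0 library, at 7.20, 7.15, 7.02 and 6.94 in Nons, at 7.38, 7.15, 6.71 and 6.86 in Smarcc1.6, and at 7.33, 7.11, 6.68 and 6.94 in Smarcc1.7. Both hairpin libraries were above Nons on day 4 and both below it on day 6, by 0.32 and 0.34 log2 units. Its fall was -0.15 ± 0.041 (SE) log2 units per day (limma, adjusted p = 0.00876), again with the 12 libraries taken as separate.

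Bcl7c, a member of the small Bcl7 family of shared subunits, lay below same-day Nons in all 8 hairpin libraries. The Day0 library was at 4.52 and Nons at 4.68, 5.40, 5.59 and 5.82 on days 4, 5, 6 and 7. Smarcc1.6 libraries were at 4.17, 4.90, 5.20 and 5.75, and Smarcc1.7 libraries at 4.08, 5.03, 5.25 and 5.75. The 2 hairpins were within 0.13 log2 units of each other on every day, and both were below the Day0 level on day 4, when Nons was above it. In linear terms Bcl7c was at 70.1% and 65.8% of Nons on day 4, at 76.7% and 79.5% on day 6 and at 95.4% and 95.3% on day 7 with Smarcc1.6 and Smarcc1.7. The distance from Nons on day 7 was about 0.07 log2 units, where each single library had a counting SD of 0.026 to 0.035. A difference carries the counting error of 2 libraries, so its SD is larger, and both hairpins share the Nons library.

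The first comparison asked which of the subunit genes differed between Smarcc1 knockdown, both hairpins together, and Nons, with day as a factor. Bcl7c was lower, by 0.36 log2 units (-0.36 ± 0.077, SE, 95% confidence interval -0.52 to -0.19), or 78.1% of Nons (limma, Benjamini-Hochberg adjusted p = 0.0148). Of the 13406 genes tested, 6.88% were called higher and 4.77% lower, so 1 of 10 members called lower and 0 called higher are close to the background. The sign of all 8 same-day differences was also the same for Bcl7c alone, always lower, a pattern found in 7.1% of genes (and 7.89% had all 8 higher).

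This call depended on the day-matched design and on single libraries. Adjusted p was 0.0559, 0.0956 and 0.0908 without day 4, 5 or 6, 0.0705 and 0.0569 without the Nons library of day 5 or of day 6, and 1.00 in a fit that left out the day block, while the difference stayed between -0.45 and -0.29 in all of the fits with a library or day left out. In the same libraries the sum of the 8 pluripotency markers was mostly higher than Nons, as given above. The 5 genes of a fibroblast feeder list summed higher in 8 of 8 (mean difference 0.85 log2 units, with sums of 3.25 to 6.45 in Nons, 5.10 to 7.54 in Smarcc1.6 and 4.32 to 7.55 in Smarcc1.7). Of those feeder markers Postn had 0 reads in 6 libraries, all of days 4 and 5. The study's methods place these cells on gelatin-coated plates and name no feeder layer. For another female line, Xmas mESCs, the study reports a late resemblance to embryonic fibroblasts rather than neural stem cells under this differentiation. The source of the feeder list reads was not tested. The summed primitive endoderm markers were lower than Nons in 7 of 8 (mean difference -0.35, from -0.92 to 0.044). The mesoderm markers were lower in 5 of 8 (-0.94, from -2.97 to 1.25) and the neural markers in 6 of 8 (-0.31, from -0.96 to 0.65). The part of any marker list in the Bcl7c result was not tested.

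No other member passed the test, and 8 of 10 differences were negative, a count taken without its share over all genes. The members' median was -0.10 log2 units, against -0.013 over all genes tested. Arid1b (-0.28, confidence interval -0.51 to -0.042, adjusted p = 0.114), Brd9 (-0.26, -0.49 to -0.040, adjusted p = 0.115) and Pbrm1 (-0.14, -0.26 to -0.018, adjusted p = 0.124) had an unadjusted p under 0.05 in the limma fit but did not pass after adjustment. With Bcl7c, 4 of the 10 members had an unadjusted p under 0.05, as did 3770 of the 13406 genes tested. Arid2 stood at -0.19 (adjusted p = 0.242) and Phf10 at 0.10 (adjusted p = 0.453). Ss18, Brd7, Dpf2 and Arid1a were between -0.06 and 0.02, with intervals reaching no further than -0.20 and 0.15. These intervals bound only the difference averaged over the 4 days and both hairpins. Single days lay outside, such as day 6 for Ss18 (-0.32 and -0.34) and for Arid1a with Smarcc1.6 (0.25).

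**Figure D2:**
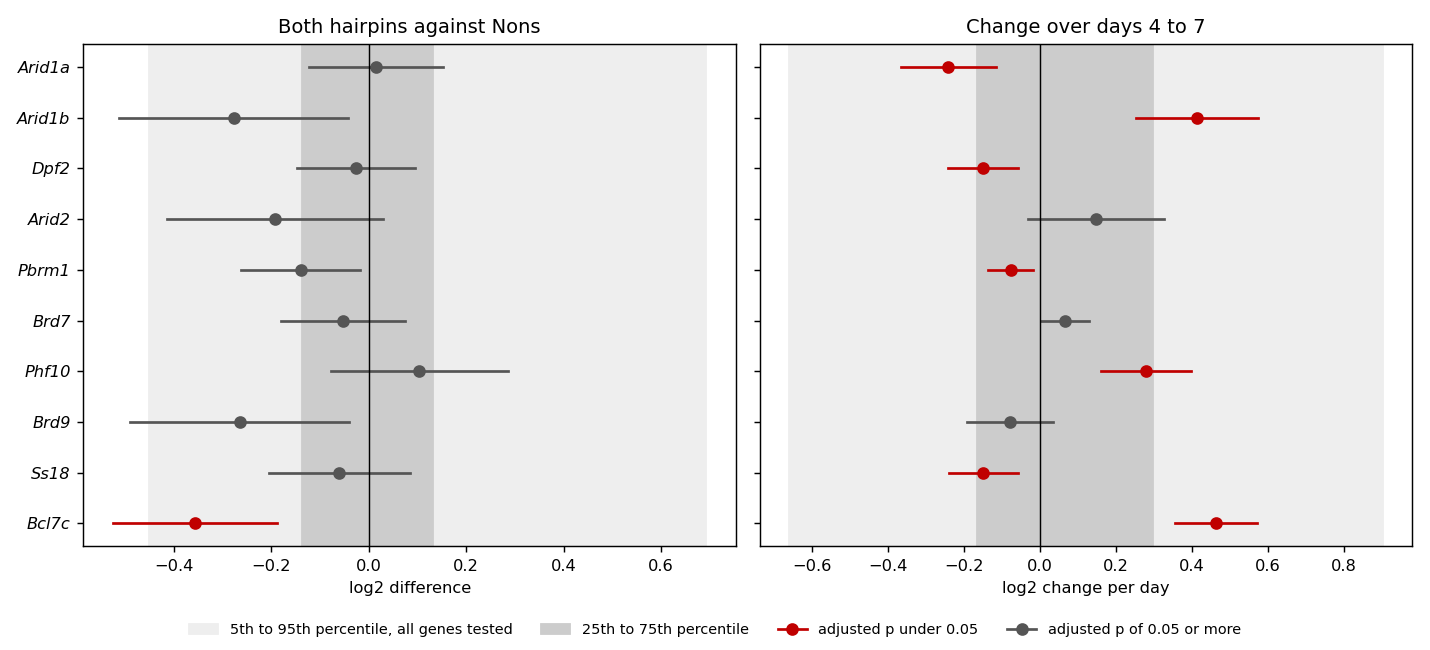
Left, log2 difference of both hairpins from Nons, and right, log2 change per day, for each subunit gene (points, with 95% confidence intervals as lines) over the central 50% and 90% of all genes tested (grey bands). On the left Bcl7c at -0.36 is the gene past the threshold, and on the right 3 genes rose and 4 fell in the fit of 12 libraries, of which Bcl7c alone passed with 1 value per day.

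Taken one at a time, the hairpins gave similar values. With Smarcc1.6, Bcl7c was at -0.37 ± 0.21 (SD, n = 4) and was called lower (limma, adjusted p = 0.0350), as were 3.71% of genes, with 5.59% called higher. It was the 1 member called, and the call was lost in 15 of 26 alternatives. With Smarcc1.7 Bcl7c was at -0.35 ± 0.22 (SD, n = 4) and missed the threshold (adjusted p = 0.0767). None of the 10 members was called there by limma, and 0.768% of genes were called lower and 1.69% higher. An unadjusted p under 0.05 was found for 2 of the 10 members and for 2838 of the 13406 genes tested. A direct comparison of the hairpins called 0% of genes and none of the members, of which none had an unadjusted p under 0.05 either (530 genes did). The difference between hairpins for Bcl7c was -0.021, with an interval of -0.23 to 0.18. Both hairpins are compared with the same Nons libraries, so their agreement is not independent.

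Day by day, the members' differences were not spread evenly. On day 4, 5 of the 10 members were lower than Nons and 5 higher with either hairpin, with medians of -0.00047 and -0.0065, against 49.5% and 49.9% of all genes lower, and Bcl7c was the member furthest from 0. On day 5, 8 and 9 of 10 were lower with Smarcc1.6 and Smarcc1.7, with medians of -0.16 and -0.092, where 53.6% and 55.4% of all genes were lower. Arid1b and Arid2 were then the furthest from Nons, at -0.88 and -0.83 with Smarcc1.6 and at -0.53 and -0.49 with Smarcc1.7. Both pairs of values rest on the same Nons library of day 5. Without day 5 the difference over the remaining days was -0.13 for Arid1b and -0.037 for Arid2.

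On day 6, 6 and 9 of 10 members were lower, against 52.9% and 54.6% of all genes, and Brd9 was furthest below Nons, at -0.49 and -0.74. Furthest above it were Arid1a with Smarcc1.6, at 0.25, and Phf10 with Smarcc1.7, at 0.55. By day 7, 8 and 5 of 10 were lower, with medians of -0.079 and 0.012, against 46.8% and 49.0% of all genes, and Brd9 was again the furthest below, at -0.30 and -0.46. These are values of 1 library per group and day.

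**Figure D3:**
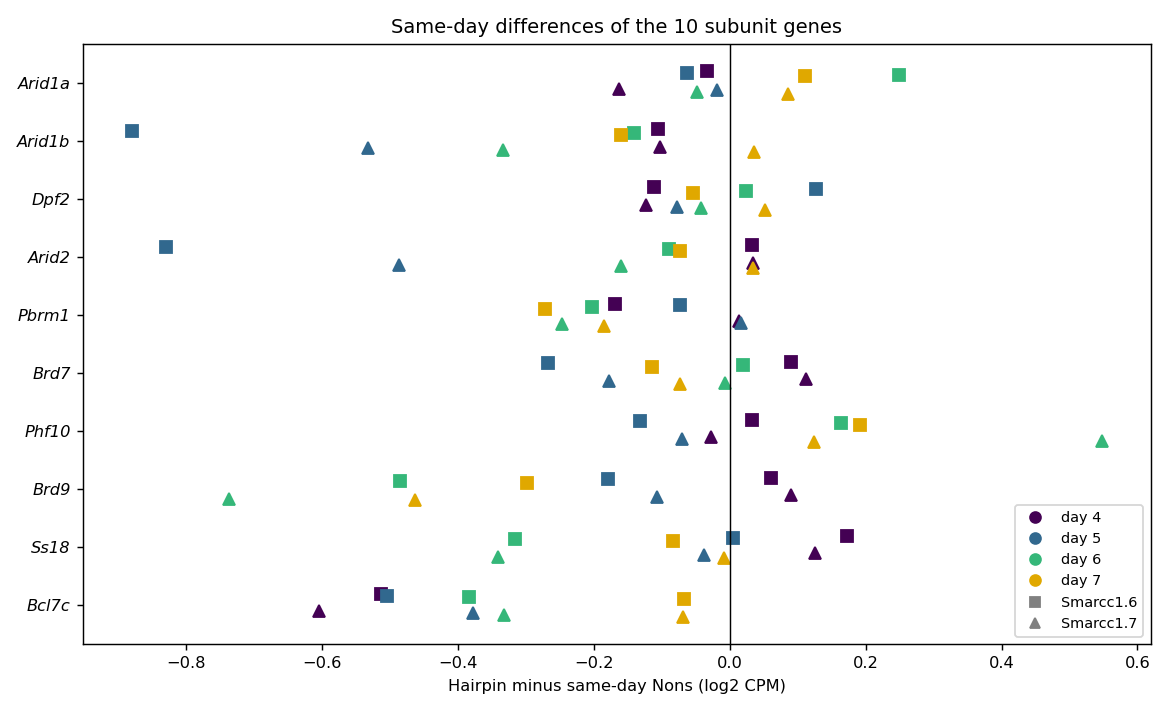
Difference of each hairpin library from the Nons library of the same day (x axis, log2 CPM) for each subunit gene, coloured by day, with squares for Smarcc1.6 and triangles for Smarcc1.7. All 8 points of Bcl7c are below 0, the day 5 points of Arid1b and Arid2 lie between -0.88 and -0.49, and those of Brd9 on days 6 and 7 lie between -0.74 and -0.30.

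Whether the knockdown difference itself changed with day was tested as an interaction. No member was called, and 3.75% of genes were. Unadjusted p was under 0.05 in limma for 2 of the 10 members and for 2529 of the 13406 genes tested. In limma the Bcl7c difference closed by 0.16 log2 units per day (interval 0.038 to 0.27, adjusted p = 0.137), and for Brd9 it widened by -0.18 per day (interval -0.35 to -0.017, adjusted p = 0.218). With day 7 left out, Ss18 passed (-0.24 per day, adjusted p = 0.0442).

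The change over days, hairpins and Nons together, was fitted next. Of the 10 members, 3 rose (Bcl7c, Arid1b and Phf10) and 4 fell (Arid1a, Dpf2, Ss18 and Pbrm1) over days 4 to 7, where 34.9% of all genes rose and 25.6% fell. With 1 value per day, the mean of the 3 groups, which leaves 4 values, 1 of the 7 passed, Bcl7c (adjusted p = 0.0331, limma), and adjusted p was 0.0613 for Arid1b, 0.0825 for Phf10 and 0.155 to 0.397 for the 4 that fell. In the fit of 12 libraries Bcl7c rose by 0.46 ± 0.049 (SE) log2 units per day (limma, adjusted p = 2.11e-05). From day 4 to day 7 it rose 2.19-fold in Nons, 2.99-fold in Smarcc1.6 and 3.18-fold in Smarcc1.7. Arid1b rose 2.09-fold, 2.02-fold and 2.30-fold over the same days, whereas Arid1a fell by 0.93, 0.78 and 0.68 log2 units. Counted by sign, 5 members were higher on day 7 than on day 4 in all 3 groups, 4 were lower in all 3, and Brd9 was mixed. The share of all genes with such signs was not taken.

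Centring each library on its autosomal median lowered every change per day by 0.085 log2 units. The calls were then 3 rising and 5 falling, with Brd9 added at -0.17 per day, and Brd7 turned from 0.066 to -0.020 per day without passing the test in either. In Nons alone, with 4 libraries, no member passed. The change of Arid1a was -0.051 per day without day 7 and without day 4 those of Dpf2 and Ss18 were -0.054 and -0.11, none of them called.

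Against Day0, the day 6 libraries are the ones that share its share of reads in genes. There, 6 members were higher than Day0 in all 3 groups, 2 were lower, and 2 were mixed. The share over all genes was not taken, so these counts are not read as a trait of the members. Bcl7c was higher by 1.07, 0.68 and 0.73 log2 units in Nons, Smarcc1.6 and Smarcc1.7, Arid2 by 0.84, 0.75 and 0.68, and Arid1a by 0.65, 0.90 and 0.60. Brd9 was lower by 0.17, 0.66 and 0.91 log2 units and Dpf2 by 0.20, 0.18 and 0.24. Day0 was 1 library and entered no test.

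Ratios within a library set related subunits side by side. They are ratios of CPM, which do not correct for gene length, so their change and not their level is read. Brd7 and Brd9 belong to different forms, PBAF and ncBAF, so their ratio does not describe an exchange within a form. Arid1a over Arid1b was 4.30 at Day0, and in Nons it fell from 17.8 on day 4 to 9.74, 6.17 and 4.46 on days 5, 6 and 7. In Smarcc1.6 it went from 18.7 to 17.2, 8.09 and 5.38, and in Smarcc1.7 from 17.0 to 13.9, 7.51 and 4.62. The balance between the paralogues thus moved towards Arid1b in every group, and in 7 of 8 same-day pairs it stayed further on the Arid1a side in the hairpin library, by 0.29 log2 units on average and by 0.17 without day 5.

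The ratio of Bcl7c to each of its paralogues Bcl7a and Bcl7b was lower in the hairpin library in 8 of 8 same-day pairs. The average was 0.21 log2 units for either, and 0.14 for Bcl7b without day 4. For Bcl7b the difference with Smarcc1.7 on day 7 was -0.0023, less than the Bcl7b counting SD of 0.060 in that library. Both ratios hold Bcl7c, itself lower in 8 of 8. Bcl7a and Bcl7b themselves were at -0.14 each and not called (adjusted p of 0.327 and 0.278, limma). Dpf2 over Dpf1, a paralogue found in neuronal BAF, rose from 3.04 on day 4 to 42.3 on day 7 in Nons, and was lower than Nons in 8 of 8 hairpin libraries, by 0.56 log2 units on average and 0.36 without day 7. That ratio moved with Dpf1, whose log2 CPM fell from 5.19 to 0.89 in Nons, from 5.17 to 2.17 in Smarcc1.6 and from 5.14 to 1.90 in Smarcc1.7 between days 4 and 7. Dpf3 stayed at 68 reads or fewer and was not tested. Brd7 over Brd9 was higher than Nons in 6 of 8 pairs (mean 0.21 log2 units, 0.078 without day 6) and Ss18 over Ss18l1 lower in 6 of 8 (mean -0.35, -0.58 without day 4 and -0.23 without day 6). No test was run on the ratios.

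**Figure D4:**
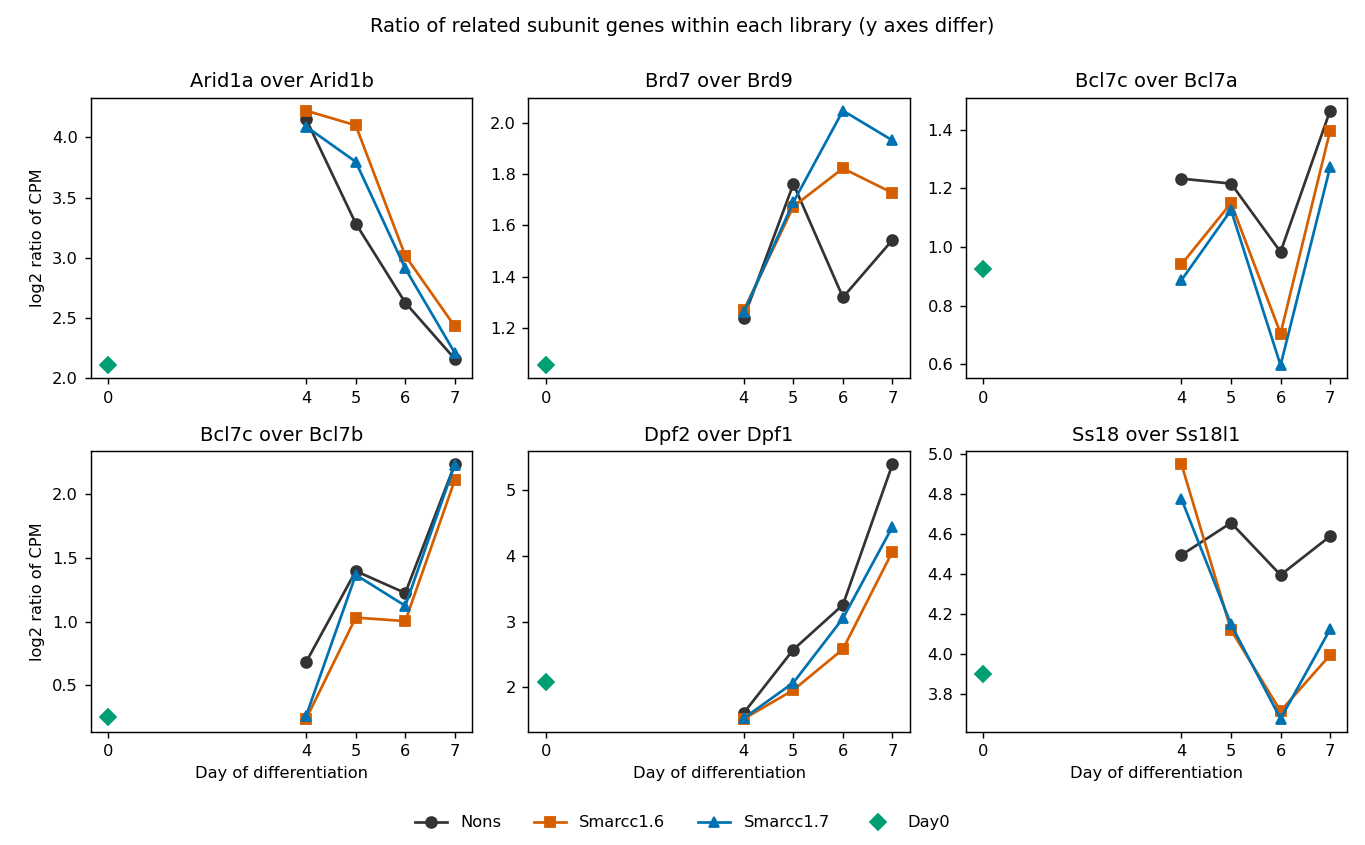
Ratio of 2 related subunit genes within each library (y axis, log2 ratio of CPM, scales differ between panels) against day (x axis), for Day0 (green diamond) and for Nons, Smarcc1.6 and Smarcc1.7 (lines, 1 library per point). Arid1a over Arid1b runs from 4.22 down to 2.16 log2 units. Both Bcl7c panels have the hairpin lines below Nons on all 4 days, though by 0.0023 log2 units for Bcl7b with Smarcc1.7 on day 7.

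Per length, the members formed 2 tiers with the 2 annotated lengths used here, the union of exons and the longest transcript. Which transcripts the cells used was not measured, and a shorter main transcript would raise a gene's level per length. Levels were set per kilobase of the union of exons, as log2 CPM per kb, mean over the 4 Nons libraries. Arid1a was highest at 4.72 ± 0.42 (SD, n = 4), followed by Pbrm1 at 4.42, Phf10 at 4.25, Arid2 at 3.89, Ss18 at 3.84, Brd7 at 3.81 and Dpf2 at 3.71. Neighbours among these 7 differed by less than their spread, and the order from Pbrm1 to Dpf2 changed when the longest transcript was used as the length. Bcl7c at 2.52 ± 0.49, Brd9 at 1.94 ± 0.15 and Arid1b at 1.53 ± 0.56 (SD, n = 4) came last with either length. The step from Dpf2 to Bcl7c was present in 12 of 12 libraries of days 4 to 7. Bcl7c was above Brd9 in 9 of 12 libraries, all but those of day 4. Brd9 was above Arid1b in 8 of 12, including all 4 of Nons, and below it in the 4 hairpin libraries of days 6 and 7, while with the longest transcript it was above in 12 of 12.

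**Figure D5:**
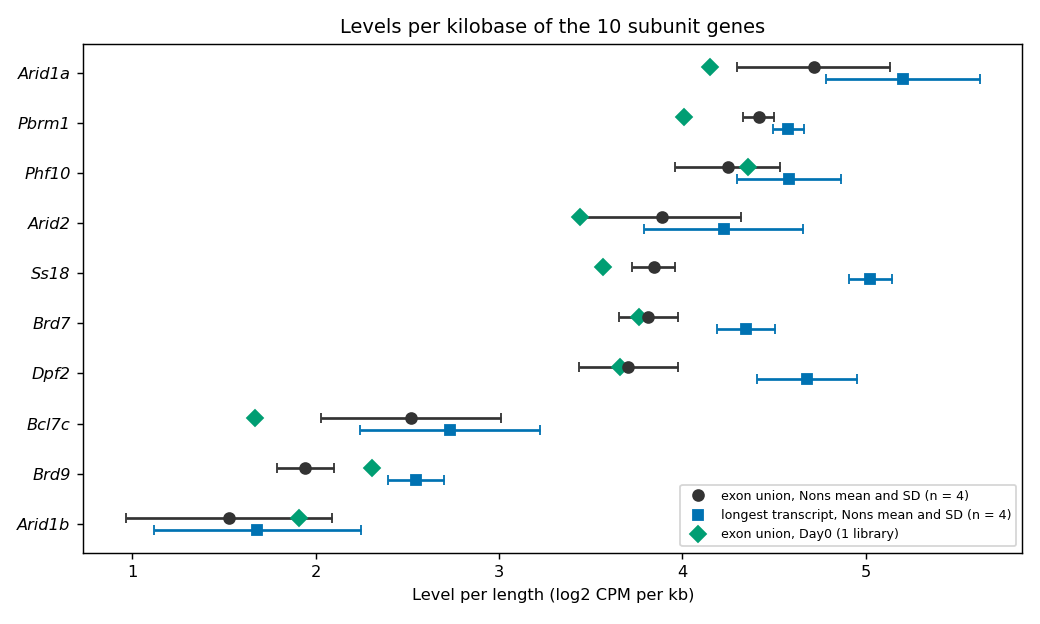
Level per kilobase (x axis, log2 CPM per kb) of each subunit gene in Nons, as mean and SD over 4 libraries, with the exon union (circles) or the longest transcript (squares) as length, and at Day0 (diamonds, 1 library, exon union). Bcl7c, Brd9 and Arid1b lie below the other genes with either length.

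For the rest of the complex, 19 other BAF genes were in the table and 17 were tested. None was called for both hairpins against Nons, with a median of -0.050 and a range from -0.28 (Gltscr1, now Bicra) to 0.53 (Dpf1, limma, adjusted p = 0.0594). An unadjusted limma p under 0.05 was found for 6 of the 17 and for 3770 of all 13406 genes tested. With Smarcc1.6 alone Dpf1 was called higher (0.68, limma adjusted p = 0.0434), and in the interaction Bcl11b was called (0.63 log2 units per day, adjusted p = 0.0345). Smarcc2, the paralogue of the targeted scaffold subunit, was at 0.07 (adjusted p = 0.660). Over days, 5 of the 17 rose, 6 fell and 6 did not pass. Among the tested genes whose levels most resembled Bcl7c over the 12 libraries, after the mean of each day was taken off, were Klhl17 (Pearson r = 0.97) and Jmjd6 (r = 0.97). These correlations describe libraries that share days and groups.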

How the data were processed

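RNA-seq libraries of differentiating FVB/CAST F1 mESCs (1 Day0, 4 Nons, 4 Smarcc1.6, 4 Smarcc1.7) were grouped by their titles. The authors trimmed paired reads with trim_galore, aligned them with tophat or hisat2 to mm10 with the FVB/NJ and CAST/EiJ differences masked (the submitters' processing notes name bcl2fastq and TopHat2 2.0.12) and counted them per gene in Seqmonk. The deposited values are log2 CPM, relative to all mapped reads, with both alleles together, and 0 reads written as 0.9 reads. Annotation release and strand setting were not given in the sources used here. In each library 100% of low values (under 20 reads) were whole reads within 0.01, which gave the depths. Counting SDs and the floor of 3 reads cover counting error only, since reads carried no molecular identifiers, and intervals of the fits rest on the spread between libraries.

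Genes whose log2 CPM averaged 0 or more on days 4 to 7 (13406, including all 10 members) were fitted with limma 3.58.1 in R 4.3.3 (lmFit, eBayes with trend), Benjamini-Hochberg adjusted over all of them, threshold 0.05. Knockdown and hairpin fits had day as a factor, which blocks libraries of the same day. Same-day libraries deviated together from their group means (correlation of 0.74 to 0.96 over 12 pairs). Day entered as a number, beside group, for the change per day, and as knockdown times day for the interaction. For these female libraries the study's methods name no test of single genes in total expression. They name voom for a comparison of culture methods in male mESCs. The study's results report that no differentially expressed gene was shared by its Smarcc1 and Smarca4 knockdowns. Gene positions and lengths, and transcripts for the guide matches, came from GENCODE M21 (mm10). Python 3.11.15, numpy 2.4.6, pandas 2.3.3, scipy 1.17.1 and matplotlib 3.10.9 were used.

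The members and lists were chosen with earlier results of these data known. Named genes were the 10 members, Smarcc1, paralogues, other BAF genes at the ends of their range or past the threshold, and the 3 genes most like a member called for knockdown, of which 1 is not reported here. Alternatives were other filters, a pseudocount of 1, autosomal centring, quantile normalization, no trend, voom on whole reads, thinning to the smallest depth, no day block, single hairpins and leaving out each day or library. The fit of change per day to the mean of the 3 groups on each day was chosen after seeing the data.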

Additional observations from a re-analysis of the deposited data

How the results depend on the processing

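Of 686 recomputed values, 600 were classed as the same. For the value of a gene this meant the same direction and side of the threshold. For a count of called members it meant a count equal or close to the main one. For both hairpins against Nons, 1 member was called, against 0 without the day block, which pairs the libraries, and 0 with either hairpin alone, and between 0 and 2 with a day or library left out. The 2 were Bcl7c and Brd9, without the Nons library of day 4. Shares of all genes called are not given here for the alternatives. For Smarcc1.6 the count of 1 became 0 under quantile normalization, without trend, without the day block and in a fit of that hairpin and Nons only, and was 0 to 1 with a day or library left out. It was 0 to 1 for Smarcc1.7 (Bcl7c, without day 7 or its Nons library) and 0 to 1 for the interaction (Ss18, without day 7). For the change per day, 7 became 0 in Nons only, 1 (Bcl7c) with the mean of the 3 groups on each day, a setting chosen after seeing the data, and 4 to 8 with a day or library left out, with 4 without day 4. Reversed values, none of them called before or after, were Arid1a against Nons (0.02, and -0.036 with Smarcc1.7 only), which ran from -0.020 to 0.053 with a day or library left out (-0.013 without day 6 and without day 7), as did Dpf2 from -0.049 to 0.0050, Brd7 from -0.10 to 0.0047 and Ss18 from -0.13 to 0.029. For the change per day these were Arid2 (-0.021 to 0.41), Brd9 (-0.13 to 0.018, and 0.043 in Nons only) and Brd7 (-0.020 after autosomal centring). Arid2 passed the threshold at 0.41 without day 7. The cause of these shifts was not tested, except that single-hairpin and Nons-only fits hold fewer libraries. With 1 library per group and day, a difference within 1 day has no replicate behind it.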
